A study of Rattus norvegicus with 6 samples.

Results

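The nucleosome remodelling and deacetylase complex (NuRD) and the CoREST complex are corepressors that share the histone deacetylases HDAC1 and HDAC2. The 10 genes followed here in liver RNA were the NuRD genes Chd3, Chd4, Mta1, Mta2, Mbd3 and Gatad2a, the shared genes Hdac1 and Hdac2, and the CoREST genes Rcor1 and Kdm1a. They were taken by symbol from the gene expression table, where each of the 10 had 1 row among 32930, and all 10 passed the expression filter, as did 18455 genes in all. The study named CHD4 and RCOR1 in connection with histone H2B lactylation, in its lactylation proteomics of the human liver cell line LO2. The values below are liver transcripts of these complexes, not protein or lactylation.

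Liver RNA came from 3 animals on a high-fat diet given 0.5% sodium carboxymethyl cellulose (HFD group) and 3 animals on the same diet given the herbal formula Huazhuo Tiaozhi granule (HTG group), with an intervention of 12 weeks per the labels. Age and strain are not given in the labels. The labels call the animals rats, and the study's methods describe Wistar rats for the feeding experiment but C57BL/6 J mice for the RNA sequencing. In the methods of the feeding experiment the high-fat diet lasted 12 weeks, and the gavage covered only the later part of it. The gene identifiers are mouse Ensembl ones, so the genes are named as mouse genes, with the table's own coordinates and no named mouse build. The treatment field spells the agent HCG and the titles spell it HTG. There was no normal-diet group among these libraries.

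In NuRD, a CHD helicase that moves nucleosomes with ATP is joined to a deacetylase module by a GATAD2 bridge and an MBD protein. MTA proteins hold the deacetylases, and RBBP proteins bind histones. In CoREST, the RCOR scaffold couples HDAC1 or HDAC2 to KDM1A, a demethylase of histone tails, and transcription factors such as REST and GFI1 bring the complex to DNA. Most subunits exist as paralogues, so the same complex can be built from different genes.

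The deposited estimated counts summed to between 50648778 (HTG library 3) and 90563477 (HTG library 2) per library. Among low values a count of 4 (6450 values) was more common than 3 (2549) or 5 (1757). A fragment was therefore taken as 4 counts, and 3 fragments, or 12 counts, were taken as the limit that an empty gene allows, which covers counting error only. The 10 genes had 651 to 30224 counts per library and lay far above that limit. Transcripts of the mitochondrial chromosome took 4.97% to 6.45% of the counts in the HFD libraries and 9.31% to 15.2% in the HTG libraries. Hepatocyte markers dominated as labelled, with the albumin gene Alb between 20514.5 and 31602.2 FPKM. The pancreatic marker Pnlip was at 0 in every library. Of the other pancreatic markers listed, Prss2 had 3 counts in HFD library 1 only, and Cela1 had 259 to 788 counts per library. FPKM, the fragment count scaled by transcript length and library total, was used to compare genes with each other. CPM, the count scaled by a library total that TMM factors adjusted, was used for the test between groups.

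All 10 genes were expressed in every library, at mean FPKM values above those of 77.0% (Rcor1) to 95.8% (Mbd3) of the table's rows. In the HFD group the order from high to low was Mbd3, Chd3, Chd4, Mta2, Mta1, Gatad2a, Hdac1, Hdac2, Rcor1 and Kdm1a. Only Chd3 and Chd4, and Rcor1 and Kdm1a, overlapped with their neighbour in that order over the 3 HFD libraries. The helicase, scaffold and MBD genes of NuRD thus stood above the deacetylases, and the CoREST genes stood lowest. In the HTG group Chd3 (27.7 ± 8.66 FPKM, SD, n = 3) moved ahead of Mbd3 (24.9 ± 5.79 FPKM), and Mta2 (12.8 ± 1.90 FPKM) ahead of Chd4 (10.8 ± 2.62 FPKM). Kdm1a (2.52 ± 0.288 FPKM) likewise moved ahead of Rcor1 (2.28 ± 0.142 FPKM). In these 3 new orders the neighbours overlapped in the HTG libraries.

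**Figure D1:**
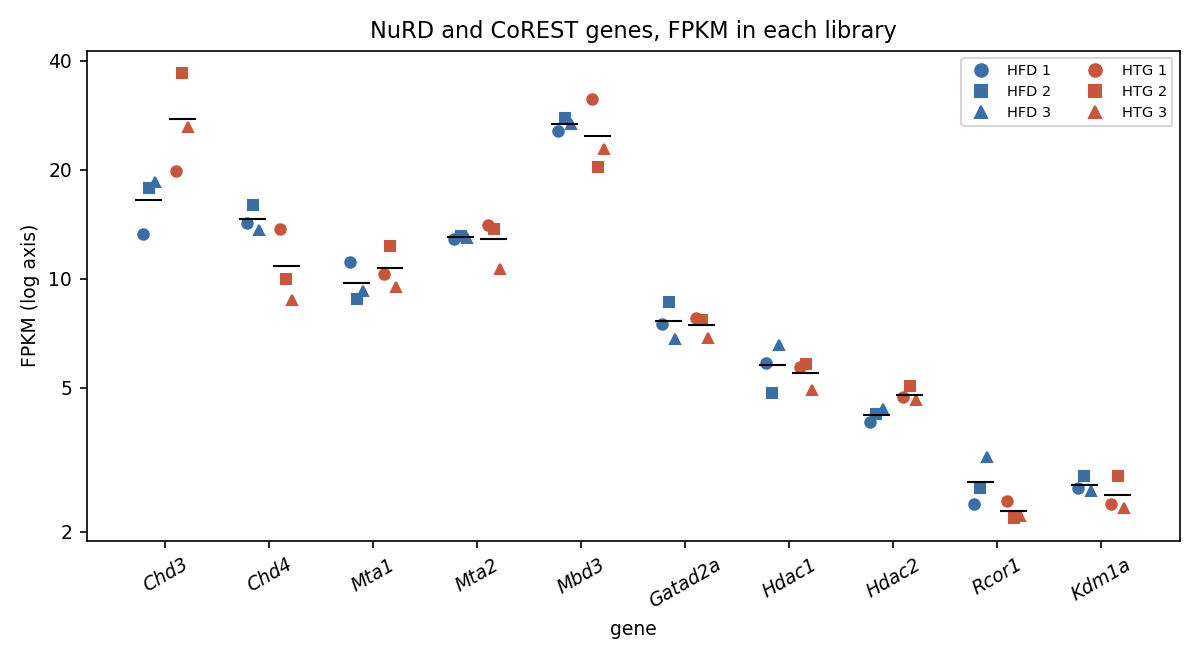
FPKM on a log axis for the 10 genes in each of the 6 libraries, with HFD libraries in blue, HTG libraries in red, a marker shape for each replicate number and a black bar at each group mean. Chd3 lay between 13.27 and 18.49 FPKM in the HFD libraries and between 19.89 and 37.01 in the HTG libraries, while the groups of most other genes overlapped.

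Between the groups, Chd3 rose at the unadjusted threshold and the other 9 genes did not pass it. With edgeR's quasi-likelihood test, 1 of the 10 genes was higher in the HTG group at an unadjusted p under 0.05, where 12.3% of all genes tested were, and 0 of 10 were lower, where 12.4% of all genes tested were. In either direction the background was 24.7%. At an adjusted p under 0.1 the count in edgeR was 0 of 10, against 10.8% of all genes tested. It was 0 of 10 in limma on FPKM and 1 of 10 in DESeq2, for which the shares of all genes are not reported here. The CPM values of the groups did not overlap in 2 of the 10 genes, Chd3 and Hdac2, both higher in the HTG group, where 16.5% of all genes tested were higher without overlap. The CPM of none of the 10 was lower without overlap, where 15.5% of all genes were. The shares among these genes therefore lay near or under the background of the whole table.

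Chd3 (ENSMUSG00000018474, chromosome 11, 69234099 to 69252547) encodes a NuRD helicase. Its level was 13.27, 17.82 and 18.49 FPKM in the HFD group (libraries 1, 2 and 3) and 19.89, 37.01 and 26.19 FPKM in the HTG group (same order). The 3 HTG values were thus all higher than the 3 HFD values, HTG library 1 by the least. The log2 fold change was 0.77 (standard error 0.26, 95% interval 0.18 to 1.37), a 1.71-fold rise, with an unadjusted p of 0.0171 and an adjusted p of 0.12 in edgeR's quasi-likelihood test. DESeq2 gave a log2 fold change of 0.75 with an adjusted p of 0.0444. The unadjusted p was 0.071 without HFD library 1 (log2 fold change 0.61) and 0.0618 without HTG library 2 (log2 fold change 0.58) in edgeR. The mitochondrial share was also higher in the HTG group, at 9.31%, 15.2% and 13.2% in HTG libraries 1, 2 and 3. It had the same order as Chd3 among the HTG libraries but not among the HFD libraries (6.45%, 4.97% and 5.24%), and its part in the Chd3 difference was not tested. In bulk liver a change in the cells present and a change in RNA per cell cannot be told apart.

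Chd4 (ENSMUSG00000063870, chromosome 6, 125072944 to 125107554) encodes the other main NuRD helicase. Its level was 14.28, 15.98 and 13.67 FPKM in the HFD group (libraries 1, 2 and 3) and 13.75, 9.96 and 8.73 FPKM in the HTG group (same order). HTG libraries 2 and 3 lay below every HFD library, and HTG library 1 lay within the HFD range. The log2 fold change was -0.40 (standard error 0.22, 95% interval -0.90 to 0.10), with an unadjusted p of 0.106 and an adjusted p of 0.303 in edgeR's quasi-likelihood test, so the difference did not pass the test. With 1 library left out, the log2 fold change ran from -0.66 to -0.28. The value of -0.66 was that without HTG library 1, with an unadjusted p of 0.013 in edgeR. The third CHD gene of this family, Chd5, known mainly from the nervous system, had at most 28 counts in any library.

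**Figure D2:**
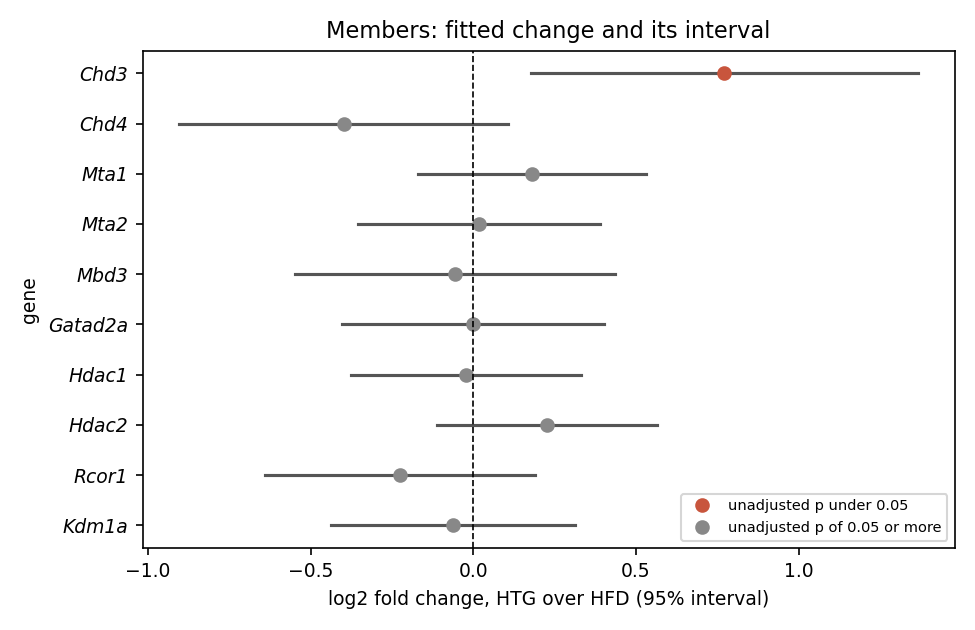
Fitted log2 fold change of the HTG over the HFD group for the 10 genes (points) with the 95% interval from edgeR's quasi-likelihood fit (lines), red where the unadjusted p was under 0.05. The interval of Chd3 (0.18 to 1.37) is the one that leaves out 0, and that of Chd4 runs from -0.90 to 0.10.

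Neither MTA scaffold gene passed the test between the groups. Mta1 (ENSMUSG00000021144, chromosome 12, 113061898 to 113100826) had 11.12, 8.77 and 9.26 FPKM in the HFD libraries and 10.33, 12.30 and 9.47 FPKM in the HTG libraries. Mta2 (ENSMUSG00000071646, chromosome 19, 8919239 to 8929667) had 12.90, 13.12 and 12.99 FPKM in the HFD libraries and 14.10, 13.76 and 10.65 FPKM in the HTG libraries. The groups overlapped in both genes. In FPKM, Mta2 hardly varied among the HFD libraries, with a coefficient of variation of 0.851%, against 14.8% among the HTG libraries. In CPM this contrast in spread was smaller, at 55.2 ± 3.67 in the HFD group and 55.9 ± 5.89 in the HTG group (SD, n = 3 per group). The 95% intervals of the log2 fold change were -0.17 to 0.53 for Mta1 (unadjusted p of 0.27) and -0.35 to 0.39 for Mta2 (unadjusted p of 0.913, edgeR). The third family member, Mta3, was lower in level, at 2.13 ± 0.365 FPKM in the HFD group and 2.12 ± 0.121 FPKM in the HTG group (SD, n = 3 per group).

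Mbd3 (ENSMUSG00000035478, chromosome 10, 80228373 to 80235384) encodes the MBD subunit that binds methylated DNA only weakly. It had 25.52, 27.84 and 26.80 FPKM in the HFD libraries and 31.41, 20.40 and 22.78 FPKM in the HTG libraries. The HTG libraries lay on both sides of the HFD libraries, library 1 above them and libraries 2 and 3 below. The log2 fold change was -0.06 (95% interval -0.55 to 0.43, unadjusted p of 0.799, edgeR), and its sign turned without HFD library 2 (0.02) or HTG library 2 (0.11). Gatad2a (ENSMUSG00000036180, chromosome 8, 70359726 to 70449034) encodes the bridge to the helicase. It had 7.51, 8.60 and 6.80 FPKM in the HFD libraries and 7.77, 7.69 and 6.87 FPKM in the HTG libraries. All HTG values of Gatad2a fell inside the HFD range, and the 95% interval of its log2 fold change was -0.40 to 0.40 (unadjusted p of 0.996, edgeR). Its paralogue Gatad2b stood at 1.25 ± 0.0971 FPKM in the HFD group and 1.32 ± 0.103 FPKM in the HTG group, and Mbd2, the paralogue of Mbd3, at 11.7 ± 2.51 and 12.5 ± 0.405 FPKM (SD, n = 3 per group).

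The deacetylases belong to both complexes. Hdac1 (ENSMUSG00000028800, chromosome 4, 129409897 to 129436506) had 5.85, 4.85 and 6.58 FPKM in the HFD libraries and 5.71, 5.83 and 4.92 FPKM in the HTG libraries, so its groups overlapped. Its log2 fold change was -0.02 (95% interval -0.38 to 0.33, unadjusted p of 0.888, edgeR). A processed pseudogene, Hdac1-ps, carried counts equal to 3.49% to 10.2% of those of Hdac1, and adding them to Hdac1 gave a log2 fold change of -0.07. Hdac2 (ENSMUSG00000019777, chromosome 10, 36850540 to 36877885) had 4.02, 4.24 and 4.38 FPKM in the HFD libraries and 4.70, 5.04 and 4.62 FPKM in the HTG libraries. Every HTG library of Hdac2 lay above every HFD library, by a small margin. Its log2 fold change was 0.23 (95% interval -0.11 to 0.56, unadjusted p of 0.162, edgeR), so this difference did not pass the test. The sum of both genes was 9.97 ± 0.939 FPKM in the HFD group and 10.3 ± 0.675 FPKM in the HTG group (SD, n = 3 per group).

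Rcor1 (ENSMUSG00000037896, chromosome 12, 111005785 to 111082335), the CoREST scaffold gene, had 2.39, 2.65 and 3.21 FPKM in the HFD libraries and 2.44, 2.18 and 2.21 FPKM in the HTG libraries. HTG library 1 lay just above the lowest HFD library, so the groups overlapped. The log2 fold change was -0.22 (95% interval -0.64 to 0.19, unadjusted p of 0.25, edgeR). Kdm1a (ENSMUSG00000036940, chromosome 4, 136277851 to 136330034), the demethylase gene, had 2.64, 2.86 and 2.60 FPKM in the HFD libraries and 2.39, 2.85 and 2.32 FPKM in the HTG libraries. Its groups overlapped, with a log2 fold change of -0.06 (95% interval -0.44 to 0.31, unadjusted p of 0.709, edgeR). The span of Kdm1a overlaps Luzp1 on the opposite strand, which had 542 to 1339 counts per library, and as the counting's use of strand is not stated, reads of these genes could be exchanged. Around the other 9 genes, overlapping genes were absent or held at most 1.33% of the gene's counts.

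The balance within each pair of NuRD or CoREST paralogues was taken as a ratio of FPKM values inside each library, which does not depend on scaling between libraries. A ratio of transcripts does not show which paralogue sits in a complex. The Chd4 to Chd3 ratio was 1.08, 0.897 and 0.739 in the HFD group (libraries 1, 2 and 3) and 0.691, 0.269 and 0.333 in the HTG group (same order). Every HTG ratio lay below every HFD ratio, with HTG library 1 close to HFD library 3. The mean log2 ratio was -0.16 ± 0.27 in the HFD group and -1.33 ± 0.71 in the HTG group, a difference of -1.17 (two-sided exact permutation test, p = 0.1, which is the smallest that 3 libraries against 3 allow, and 0.28 after Benjamini-Hochberg adjustment over 7 ratios). With any single library removed, the difference ran from -1.57 to -0.89. As shares of the summed FPKM of Chd3, Chd4 and Chd5, Chd3 made up 48.1% to 57.4% in the HFD libraries and 59.1% to 78.8% in the HTG libraries. The summed level of the 3 genes overlapped between the groups, at 31.2 ± 3.26 FPKM in the HFD group and 38.5 ± 7.35 FPKM in the HTG group (SD, n = 3 per group).

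**Figure D3:**
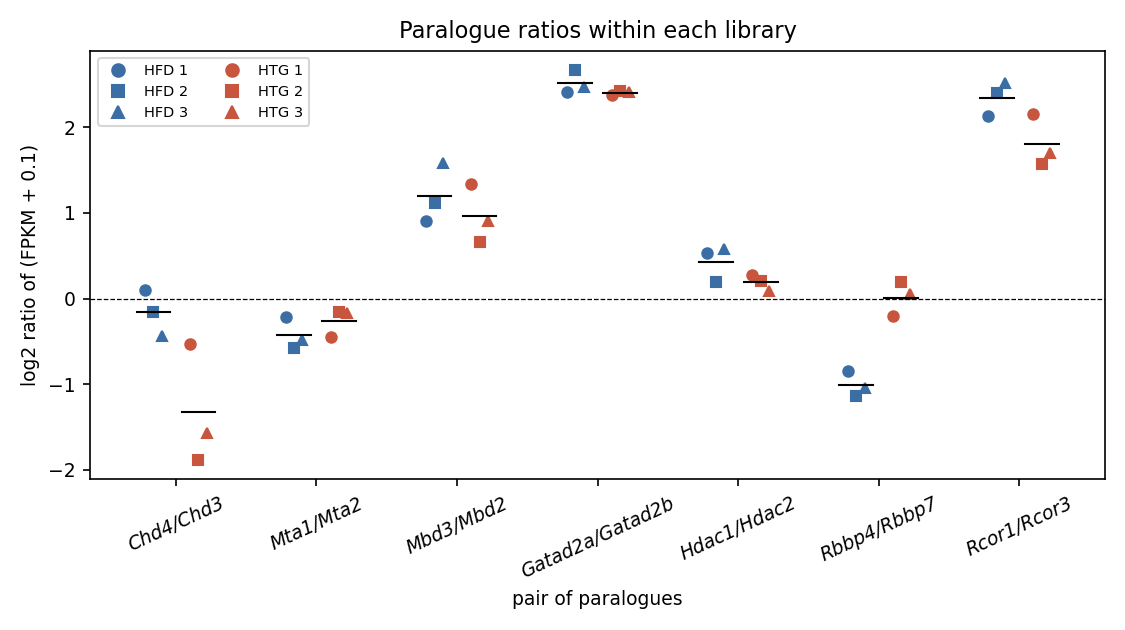
Log2 ratio of (FPKM + 0.1) between paralogues within each library, HFD in blue and HTG in red, with a marker shape for each replicate number and a black bar at each group mean. The groups are apart for Chd4/Chd3 (means of -0.16 and -1.33) and Rbbp4/Rbbp7 (means of -1.01 and 0.01) and overlap for the other 5 pairs. No background share of ratios without overlap was taken.

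The histone-binding pair Rbbp4 and Rbbp7, found in NuRD and in several other complexes, was the second pair whose ratios did not overlap. No share of ratios without overlap was taken over other gene pairs, so this count has no background. Rbbp7 had 13.40, 15.85 and 16.54 FPKM in the HFD libraries and 7.75, 5.68 and 5.44 FPKM in the HTG libraries, while Rbbp4 had 7.42, 7.14 and 7.96 FPKM and 6.69, 6.49 and 5.64 FPKM. All HTG libraries were below all HFD libraries in both genes, by far more in Rbbp7. Of all genes tested, the CPM of 15.5% was lower without overlap. Rbbp7 fell with a log2 fold change of -1.24 (standard error 0.20, unadjusted p of 0.000247, adjusted p of 0.0538, edgeR), and Rbbp4 had -0.22 (unadjusted p of 0.197). The mean log2 ratio of Rbbp4 to Rbbp7 was -1.01 ± 0.15 in the HFD group and 0.01 ± 0.20 in the HTG group (exact permutation p = 0.1, the smallest possible, and 0.28 after adjustment over the 7 ratios). The summed FPKM of this pair was 22.8 ± 1.85 in the HFD group and 12.6 ± 1.71 in the HTG group (SD, n = 3 per group). The differences of the mean log2 ratio were 0.17 for Mta1/Mta2, -0.24 for Mbd3/Mbd2, -0.11 for Gatad2a/Gatad2b, -0.24 for Hdac1/Hdac2 and -0.54 for Rcor1/Rcor3, with overlapping groups and exact permutation p-values of 0.2 to 0.4 (0.28 to 0.4 after adjustment). Gatad2a held 84.6% to 87.1% of the summed level of the GATAD2 pair in all 6 libraries.

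Among 9 further NuRD genes (Chd5, Mta3, Mbd2, Gatad2b, Rbbp4, Rbbp7, Cdk2ap1, Pwwp2a and Zmynd8), 2 were higher and 1 was lower at an unadjusted p under 0.05, where 12.3% and 12.4% of all genes tested were. The median log2 fold change was 0.13, against 0.03 over all genes tested. Pwwp2a, whose protein binds the deacetylase part of NuRD, rose from 1.68 ± 0.257 to 2.84 ± 0.518 FPKM (log2 fold change 0.80, standard error 0.21, adjusted p of 0.075, edgeR). Zmynd8, a chromatin reader that can recruit NuRD, rose from 2.10 ± 0.488 to 3.33 ± 0.650 FPKM (log2 fold change 0.71, adjusted p of 0.089, edgeR), and it was chosen for naming with its values known. Rbbp7 was the lower gene.

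Among 11 further CoREST genes, 4 were higher and 0 were lower at an unadjusted p under 0.05 in edgeR's quasi-likelihood test, with a median log2 fold change of 0.34. Of all genes tested, 12.3% were higher and 12.4% lower. The number higher was 3 to 4 with 1 library left out. Gse1, which encodes a CoREST-associated protein, had 1.69, 1.35 and 1.83 FPKM in the HFD libraries and 3.07, 3.60 and 3.99 FPKM in the HTG libraries. Its log2 fold change was 1.19 (standard error 0.18, unadjusted p of 0.000165, adjusted p of 0.0538, edgeR), and the groups were far apart. Hmg20b, an HMG-box subunit, and Phf21a, a histone reader, were among the others and were named after their values were seen. Hmg20b rose from 10.2 ± 0.913 to 14.7 ± 1.83 FPKM and Phf21a from 2.38 ± 0.384 to 3.63 ± 0.755 FPKM (SD, n = 3 per group), with log2 fold changes of 0.56 and 0.64. The scaffold paralogue Rcor3 had 0.457 ± 0.0321 and 0.583 ± 0.103 FPKM and an unadjusted p of 0.0973, and Rcor2 had at most 35 counts in any library.

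**Figure D4:**
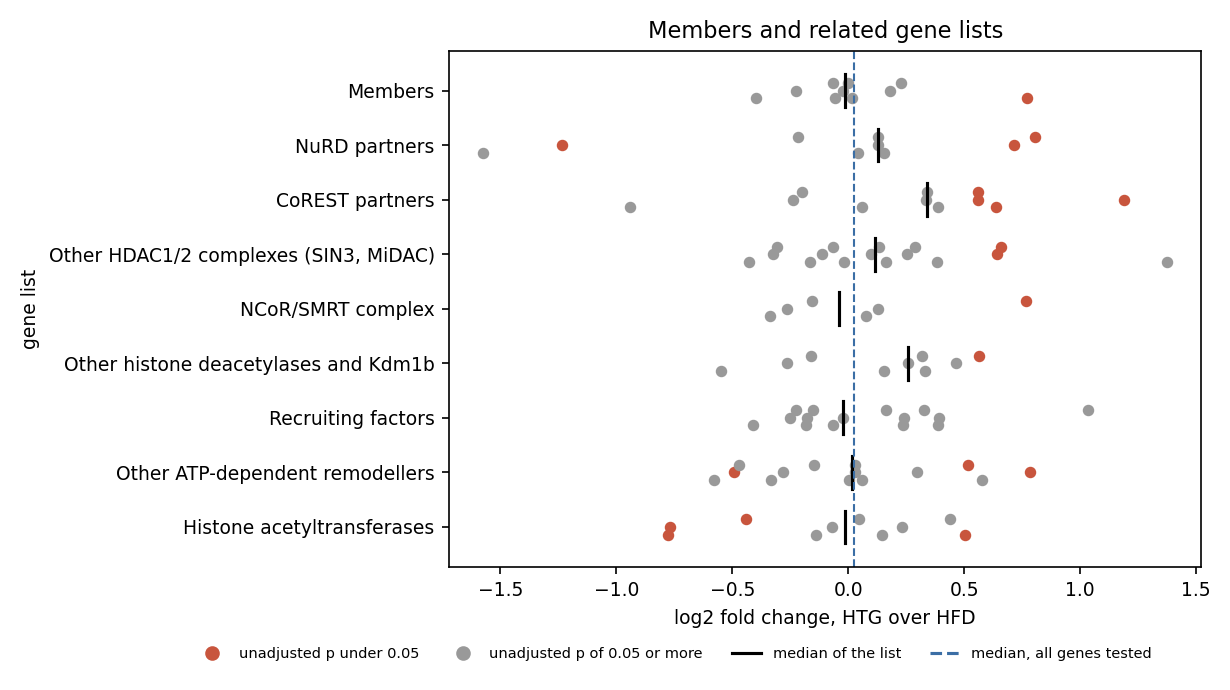
Log2 fold change of the HTG over the HFD group for each tested gene of the 10 members and 8 related lists (points), red where the unadjusted p was under 0.05 in edgeR, with each list's median (black bar) and the median of all genes tested (dashed line, 0.03). The CoREST partners have the highest median, 0.34, and 4 red points to the right, while the members hold 1 red point, Chd3.

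Lists of other chromatin regulators were counted the same way, and each count stands against 12.3% of all genes tested higher and 12.4% lower. Of the 16 genes of the SIN3 and MiDAC complexes, which also hold HDAC1 and HDAC2, 2 were higher and 0 were lower (edgeR, unadjusted p under 0.05), the smallest p being that of the SIN3 subunit gene Arid4b (log2 fold change 0.64, adjusted p of 0.0704). The number higher in that list was 1 when HFD library 2 or either of HTG libraries 1 and 3 was removed, and the number lower was 2 without HFD library 3. Of 6 genes of the NCoR/SMRT complex 1 was higher, Gps2 (log2 fold change 0.77, adjusted p of 0.0749), and of 9 other deacetylase and demethylase genes 1 was higher, Hdac10 (log2 fold change 0.57, unadjusted p of 0.0226). The call of Hdac10 was lost without any 1 of 5 libraries, all but HFD library 3 (unadjusted p of 0.0543 to 0.0686). Of 14 other remodeller genes tested, 2 were higher, Chd6 with the smaller p (log2 fold change 0.78, adjusted p of 0.0718), and 1 was lower, Smarca5 (log2 fold change -0.49, unadjusted p of 0.037), which lost its call without HFD library 2 or 3 or HTG library 2 or 3 (unadjusted p of 0.0584 to 0.123). The number of remodeller genes higher was 1 without HFD library 1, HFD library 3 or HTG library 3. Histone acetyltransferases, the enzymes that oppose the deacetylases, had 3 of 10 lower and 1 higher. Kat7 fell from 3.81 ± 0.370 to 2.18 ± 0.351 FPKM (log2 fold change -0.77, adjusted p of 0.0657), and Kat2a rose with a log2 fold change of 0.50 (unadjusted p of 0.0219), a call lost when HFD library 2 or either of HTG libraries 1 and 2 was removed (unadjusted p of 0.0626 to 0.072).

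Of the 15 tested genes for factors that recruit these complexes, Rest and Gfi1 among them, 0 had an unadjusted p under 0.05 in edgeR with all 6 libraries, and 1 was lower without HFD library 1 or without any of the HTG libraries. Of 17 tested neuronal genes known as targets of REST repression, 0 were higher and 3 were lower (17.6%, against 12.4% of all genes), and the list's median log2 fold change was -1.60, or -1.26 with genes at the limit of an empty gene set to their bound. These are genes of very low level in liver. Several had counts in HTG library 1 but 0 in HTG libraries 2 and 3. Snap25, named after its values were seen, had 57, 0 and 0 counts in HTG libraries 1, 2 and 3. In edgeR with at least 10 counts required in every library, 1 gene of the list was lower. Counts of Gria2, a glutamate receptor subunit gene, were 66, 29 and 25 in the HFD libraries against 4, 4 and 0 in the HTG libraries, at least 3.29-fold lower with the limit taken per library. Gria2 and Scn2a passed the expression filter, which asked for enough counts in 3 libraries, only through the HFD libraries. A gene admitted in this way can only come out lower. The genes with 0 counts in HTG libraries 2 and 3, Scg2 and Stmn3 among them, could not have passed through the HTG libraries alone. The median of -1.60 was the value of Scg2, and that of -1.26 the value of Stmn3. Scn2a, Scg2 and Stmn3 were named after their values were seen. The calls of Gria2 and Scn2a were thus partly set by the filter. The list's share and both medians rest on such genes and are not read as a change of REST targets. Over the 9 lists together, 13 of 107 genes tested (12.1%) were higher and 8 (7.48%) were lower, against 12.3% and 12.4% of all genes. Without HTG library 1 the number of lower genes was 17, of which 11 were REST targets, and without HFD library 2 it was 5.

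Markers of cell types were counted in the same way. Each count stands against 12.3% of all genes tested higher and 12.4% lower. The fitted change was below 0 for each of the 8 macrophage markers, and 2 of 8 passed the test (Adgre1 and Lyz2). The summed level of the 8 overlapped between the groups, at 542 to 959 CPM in the HFD libraries and 414 to 673 CPM in the HTG libraries. Of 10 hepatocyte markers 4 were lower and 1 was higher at an unadjusted p under 0.05 (edgeR). Their summed level was 94134 to 108592 CPM in the HFD libraries and 89695 to 91586 CPM in the HTG libraries. Most of that sum was Alb, at 57854 to 74503 CPM in the HFD libraries and 53506 to 55201 CPM in the HTG libraries. Alb did not pass the test (unadjusted p of 0.33, edgeR), so the sum does not describe the other hepatocyte markers. Of 6 proliferation markers 2 were lower, with overlapping summed levels of 35.4 to 63.4 and 28.9 to 40.2 CPM. Endothelial markers and other leukocyte markers held 0 of 6 and 0 of 7 tested genes with an unadjusted p under 0.05 (edgeR). Stellate markers had 1 of 6 higher and 1 lower, biliary markers 1 of 5 higher and 1 lower, red cell markers 0 of 4 higher and 1 lower, and neuronal markers 0 of 5 higher and 1 lower. The only pancreatic marker tested, Cela1, did not pass. The part of these cell types in the levels of Chd3, Rbbp7 or the CoREST partners was not tested.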

How the data were processed

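Liver libraries of 3 HFD and 3 HTG animals were grouped by their titles. For every gene the authors deposited an estimated count in each library, written as whole numbers and not scaled between libraries, and an FPKM value, scaled by transcript length and library total. Per the labels, the submitters' processing notes list HISAT2, StringTie and SAMtools without versions and the rat build mRatBN7.2, while the gene rows are mouse Ensembl genes. Filters, the mouse build and the use of strand are not given in the sources used here. Among the 10 members the ratio of count to FPKM, relative to Chd4, was the same in all 6 libraries within 0.264%, so each member had 1 fixed length and its isoforms cannot be separated. Library totals ranged from 50648778 to 90563477 counts.

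Counts were rounded and tested over the whole table with edgeR 4.0.16 in R 4.3.3 (TMM scaling, filterByExpr, glmQLFit and glmQLFTest, group as the only term) with Benjamini-Hochberg adjustment over 18455 genes. The standard error is the log2 fold change divided by the root of F, and intervals use the fit's degrees of freedom. The p-values of edgeR set the difference between the groups against the spread among animals within a group, with dispersions estimated using all genes. FPKM ratios used exact permutation tests in SciPy 1.17.1 with a pseudocount of 0.1. The code was checked on simulated counts. Alternatives were DESeq2 1.42.0, other scalings and filters, the replicate number as a block, counts divided by 4, limma 3.58.1 on log2 FPKM, and each library left out. Adding the Hdac1 pseudogene was chosen after seeing the data.

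The 10 genes and all lists were chosen with earlier results of these data known. Named genes were the 10 members, their paralogues, and from each list the gene with the smallest p under 0.05 in each direction. Other genes are marked as named after their values were seen. The rat reference tables were not used, since the rows are mouse genes. Some genes of the lists are counted but not reported here by name.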

Additional observations from a re-analysis of the deposited data

How the results depend on the processing

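The number of members higher at an unadjusted p under 0.05 was 1 in every alternative fit on 6 libraries, and between 0 and 1 with 1 library left out (0 without HFD library 1 or HTG library 2). The number lower was 0 except for 1, Chd4, in limma on log2(FPKM + 0.1) without a filter, and ran from 0 to 1 with 1 library left out (1 without HTG library 1). At an adjusted p under 0.1 the count was 1, Chd3, in DESeq2, with at least 10 counts in every library and with counts divided by 4. It was 0 to 2 with 1 library left out (2 without HTG library 1). The shares of all genes called in these alternative fits are not reported here, so these member counts have no background. Over the 9 lists the number of lower genes was 5 in limma on log2(FPKM + 1) and ran from 5 (without HFD library 2) to 17 (without HTG library 1). In limma the calls of Kat2a (unadjusted p of 0.0585 to 0.0632 in the 3 fits) and Chd6 (0.0547 without a filter) were lost.

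Signs turned in genes near 0. The log2 fold change of Mta2 was -0.0068 with DESeq2's size factors, -0.0066 in DESeq2, -0.0295 in both limma fits on log2(FPKM + 0.1) and -0.0269 in that on log2(FPKM + 1), and -0.102 to 0.0989 with 1 library left out. Gatad2a was 0.00835 with at least 10 counts, 0.0138 with counts divided by 4, 0.0124 with the replicate block and 0.038 with upper-quartile scaling (-0.102 to 0.145 with 1 left out). Hdac1 was 0.0115 with upper-quartile scaling (-0.0993 to 0.0582). Mta3 was -6.7e-05 in limma on log2(FPKM + 1) (-0.053 to 0.115). With 1 library left out, Mbd3 ran from -0.302 to 0.11, Kdm1a from -0.116 to 0.0293 and Mbd2 from -0.0583 to 0.24. The causes were not tested.

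Replicate numbers did not pair the libraries (correlations of deviations of -0.08, -0.07 and 0.10 for numbers 1, 2 and 3). With the replicate block, Chd3 had a log2 fold change of 0.76 (unadjusted p of 0.00987), 14 genes of the 9 lists were higher and 7 lower, and Smarca5 lost its call (unadjusted p of 0.0775). Exact paired sign flips of the Chd4/Chd3 ratio gave p = 0.25, the smallest that 3 pairs allow. The 7 paralogue ratios kept their direction in every alternative run.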

Other observations

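Over the 6 libraries, the log2 CPM of Chd4 had Pearson correlations of 0.75 with Mbd3, 0.60 with Rcor1, 0.59 with Mta2, 0.48 with Gatad2a, 0.32 with Kdm1a, -0.02 with Hdac1, -0.49 with Hdac2, -0.63 with Mta1 and -0.76 with Chd3. These are descriptions over 6 libraries that come from 2 groups and differ in depth, and carry no test. Among 14369 genes compared, each averaging 50 counts or more, Kxd1, Cggbp1, Sumf1 and Gfus were among the closest to Chd4, with correlations of 0.991 to 0.996. Kxd1 had 37.3, 39.8 and 36.0 CPM in HFD libraries 1, 2 and 3 and 37.2, 32.4 and 32.6 CPM in HTG libraries 1, 2 and 3. As in Chd4, HTG library 1 lay within the HFD range and HTG libraries 2 and 3 lay below it. Kxd1 was picked for its correlation over these same libraries, so this likeness follows from the choice.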
